A study of Homo sapiens with 8 samples.

Results

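The regions bound by RNA polymerase III on chromosome 17 outside its centromeric stretch, where the tRNA genes of that chromosome lie, were described in 4 ChIP-seq libraries. The regions were taken by position from the authors' lists of enriched regions (hg19): those on chromosome 17 with a midpoint from 0 to 20 Mb or from 28 to 81.2 Mb. This gave 58 of the 1222 listed regions. They were divided by position into a first cluster at 8 to 9 Mb, a second cluster at 37 to 38 Mb, and all remaining regions, called single loci. Just inside the bounds lay regions at 19411475 to 19411708 and 29877018 to 29877219, with pile-up heights of 9 and 11. Just outside lay regions at 22020583 to 22020750 and 25264986 to 25265168, with heights of 18 and 28.

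The antibody was against POLR3A, the catalytic subunit that is the largest in RNA polymerase III. One group was MDA-MB-231, a human breast cancer line, and the other MDA-LM2, its highly metastatic derivative. Each line had 2 ChIP libraries, and both were grown in the same serum-supplemented medium, fixed with 1% formaldehyde for 10 minutes and sequenced with 50 nt reads. The labels name no agent or genetic change between the groups besides the line itself. The libraries are called parental replicates 1 and 2 (MDA-MB-231) and LM2 replicates 1 and 2 (MDA-LM2). The 4 input libraries were not analysed here. The labels leave unstated whether replicates were separate cultures, so p-values measure only the spread between these libraries, which may be technical.

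RNA polymerase III makes tRNAs, 5S rRNA and other short noncoding RNAs. At a tRNA gene the promoter lies inside the gene, as an A box and a B box that the factor TFIIIC recognises. TFIIIC then places TFIIIB just upstream of the start, and TFIIIB recruits the polymerase. tRNA genes are short, occur in many near-identical copies and often sit in clusters, so a broad ChIP region can cover several of them. The sources used here do not say how reads matching several copies were treated.

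In the RefSeq gene table of GRCh38.p14, chromosome 17 holds 33 tRNA genes. They fall into 13 runs when tRNA genes with at most 1 other gene between them are joined. The longest runs lie close to one another in the gene order. The first holds TRK-TTT3-5 (lysine), TRQ-CTG1-5 (glutamine), TRL-TAG1-1 (leucine), TRR-TCT2-1 (arginine), TRG-GCC2-6 (glycine), TRS-CGA1-1 (serine) and TRT-AGT5-1 (threonine), between ALOXE3 and PER1. The second holds TRW-CCA3-3 (tryptophan), TRS-GCT4-3 (serine), TRT-AGT1-1 (threonine) and TRI-AAT5-5 (isoleucine), before BORCS6. The third holds TRW-CCA1-1 (tryptophan), TRG-TCC3-1 (glycine), TRD-GTC2-11 (aspartate), TRP-CGG1-3 (proline), TRT-AGT1-2 (threonine), TRS-AGA2-6 (serine) and TRI-AAT4-1 (isoleucine), between AURKB and PFAS. Farther on, TRW-CCA2-1, TRG-CCC3-1, TRT-CGT4-1 (threonine) and TRN-GTT2-5 (asparagine) stand alone.

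After these come 5 cysteine tRNA genes in 2 runs. TRC-GCA14-1, TRC-GCA2-2 and TRC-GCA4-1 form the first of these, and TRC-GCA2-3 and TRC-GCA2-4 the other. The remaining genes are TRQ-TTG1-1 (glutamine), TRR-CCG2-1 (arginine), a run of the arginine genes TRR-CCT1-1, TRR-CCT2-1 and TRR-TCG3-1, and the initiator methionine gene TRX-CAT1-8. The table was also searched for 3 other families that RNA polymerase III can transcribe, and on this chromosome it lists 39 entries of the 7SL family, 51 of U6 and 16 of 5S rRNA, all as pseudogenes. Further families were not looked up. The table is of another assembly than the regions, so it gave only names and gene order. No region was matched to a gene, and the label of the loci as tRNA genes was therefore not checked gene by gene.

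Parental replicate 1 listed 23 of the regions, parental replicate 2 listed 1, LM2 replicate 1 listed 14 and LM2 replicate 2 listed 20. The replicates of MDA-MB-231 were thus the highest and the lowest of the 4 libraries, and both MDA-LM2 libraries lay between them. The mean was 12 ± 15.6 (SD, n = 2) in MDA-MB-231 and 17 ± 4.24 (SD, n = 2) in MDA-LM2. The difference of 5 regions, MDA-LM2 minus MDA-MB-231, was smaller than the spread between replicates (exact two-sided permutation p = 1, where 2 libraries against 2 allow no p below 0.333). It became -6 without parental replicate 2. The whole lists differed in length as well, with 646, 18, 86 and 472 regions in the same order, and the sequencing depth of the libraries is unknown.

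As a share of its own list, the chromosome 17 set made up 3.56% of parental replicate 1 (exact Clopper-Pearson 95% interval 2.27 to 5.30%). It made up 5.56% of parental replicate 2 (0.141 to 27.3%), 16.3% of LM2 replicate 1 (9.20 to 25.8%) and 4.24% of LM2 replicate 2 (2.61 to 6.47%). LM2 replicate 1 had the highest share. Of the regions more than 2 Mb from a centromere gap, the set made up 11.1%, 7.14%, 20% and 17.1% in the 4 lists. The intervals cover counting error only.

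Counted in regions, the first cluster was the largest subset in each of the 3 libraries that listed more than 1 region. It supplied 11 of 23 regions in parental replicate 1, 7 of 14 in LM2 replicate 1, 10 of 20 in LM2 replicate 2 and none in parental replicate 2. The second cluster had 4, 2 and 3 in the same 3 libraries and 1 in parental replicate 2. Single loci had 8, 5 and 7, and none in parental replicate 2. In LM2 replicate 1, 4 of the 7 regions of the first cluster were pieces of 1 locus. Counted by merged locus, as below, that library listed 4 loci of the first cluster and 5 single loci. For a library of 18 regions, a count of 0 allows a share of up to 16.7% (3 counts of the total). Around the centromere, outside the bounds, chromosome 17 had a further 8, 0, 8 and 23 regions in parental replicates 1 and 2 and LM2 replicates 1 and 2. The differences between the lines were 3, 0 and 2 regions for the first cluster, the second cluster and the single loci, each with an exact permutation p of 1.

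**Figure D1:**
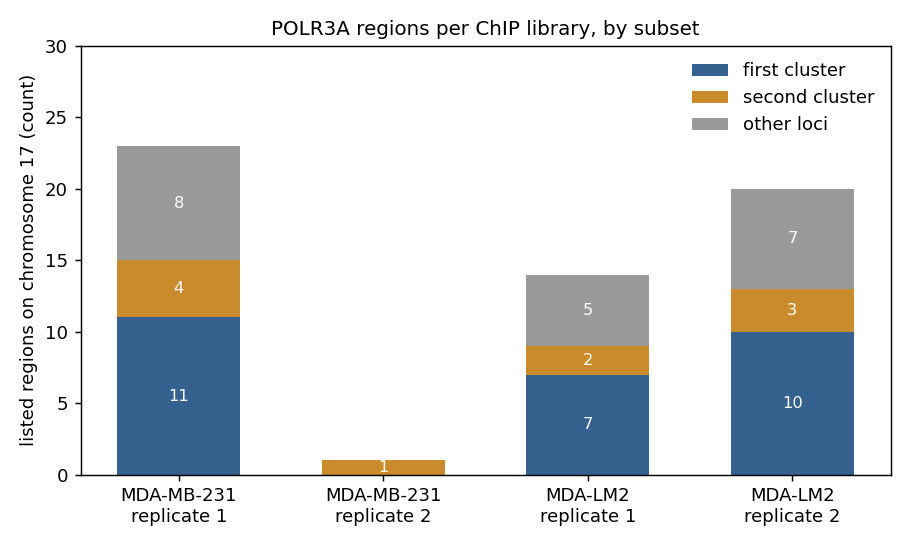
Number of listed chromosome 17 regions (vertical axis, count) in each ChIP library, divided into the first cluster, the second cluster and other (single) loci. The library totals are 23, 1, 14 and 20, so the parental replicates enclose both MDA-LM2 libraries.

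Regions of the 4 lists that overlapped by at least 1 bp were merged into loci, which gave 11 loci in the first cluster, 4 in the second and 8 single loci, 23 in all. They are numbered along the chromosome within each subset. One locus was listed in all 4 libraries (1 of 23, or 4.35%, beside 1.27% of the 788 merged regions of the whole series). At least 3 libraries listed 11 of the 23 loci (47.8%, beside 7.23% of all merged regions), and both lines listed 17 (73.9%, beside 36.8%). A single library listed 6 loci (26.1%, beside 62.8%). These shares are descriptions: the locations were chosen with earlier results of these data known, and most regions of the series lie near centromeres.

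The lists were nested on chromosome 17, apart from 1 locus listed in LM2 replicate 2 only. The locus of parental replicate 2 was among the 11 loci of LM2 replicate 1, and all 11 of those were listed in parental replicate 1 and in LM2 replicate 2. These 11 were 47.8% of the loci, beside 6.48% of all merged regions with parental replicate 2 left out. A further 6 loci were listed in parental replicate 1 and LM2 replicate 2 only, 5 in parental replicate 1 only and 1 in LM2 replicate 2 only. For the 6 and the 1, no share over all merged regions was computed. The lists also differ in length, and the part of length in this nesting was not tested. No locus was shared by the LM2 replicates and absent from both parental lists (0 of 23, beside 0.381% of all merged regions). None was shared by the parental replicates and absent from both LM2 lists (0 of 23, beside 0%), and the single region of parental replicate 2 limits that count to at most 1. Without parental replicate 2, 5 of 23 loci were listed in MDA-MB-231 only (21.7%, beside 42.1% of all merged regions). Without parental replicate 1, 10 of 22 were listed in both LM2 replicates only (45.5%, beside 8.55%). The only MDA-MB-231 list then left held a single region of the set. It could therefore remove at most 1 locus from that count, which says nothing about the line. The count in at least 3 libraries was 1 when parental replicate 1, LM2 replicate 1 or LM2 replicate 2 was left out, beside 1.99%, 1.93% and 1.66% of all merged regions. In these settings the single region of parental replicate 2 allowed no count above 1. With an overlap of at least 50% of both regions required, there were 43 loci. Of these, 4 were listed in at least 3 libraries (9.30%, beside 1.49%) and 0 in all 4 (beside 0.372%).

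**Figure D2:**
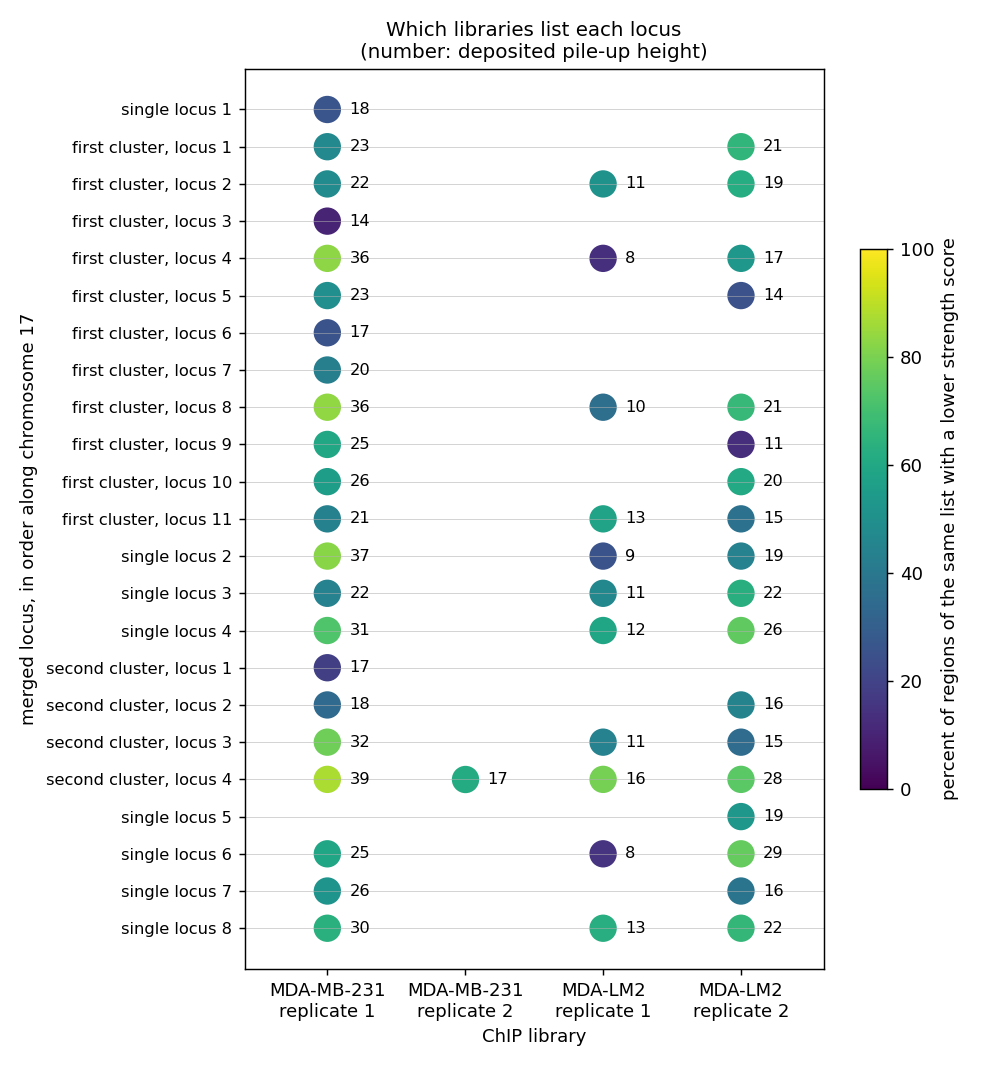
The 23 merged loci in order along chromosome 17 (vertical axis) and the ChIP libraries that list them (horizontal axis). The colour gives the percent of regions of the same list with a lower strength score, and the number beside each point is the deposited pile-up height. Every locus of LM2 replicate 1 also has a point in parental replicate 1 and LM2 replicate 2.

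Counted region by region, 14 of the 14 regions of LM2 replicate 1 overlapped a region of parental replicate 1 (100%, exact 95% interval 76.8 to 100%, beside 84.9% of that whole list). Of the same 14, 12 overlapped LM2 replicate 2 (85.7%, 57.2 to 98.2%, beside 65.1%) and 1 overlapped parental replicate 2 (beside 11.6%). The 2 regions not found in its own replicate were both pieces of locus 8 of the first cluster, which this library listed in 4 regions. Counted by locus, all 11 of its loci were listed in both parental replicate 1 and LM2 replicate 2.

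Of the 20 regions of LM2 replicate 2, 19 overlapped parental replicate 1 (95%, 75.1 to 99.9%, beside 66.5%). In LM2 replicate 1, 11 of the 20 were found (55%, 31.5 to 76.9%, beside 11.2%), and in parental replicate 2, 1 was found (beside 3.39%). Of the 23 regions of parental replicate 1, 18 overlapped LM2 replicate 2 (78.3%, 56.3 to 92.5%, beside 46.7%). LM2 replicate 1 held 11 of the 23 (47.8%, 26.8 to 69.4%, beside 9.75%) and parental replicate 2 held 1 (beside 2.48%). Of regions more than 2 Mb from a centromere gap, 86.3% of those of LM2 replicate 2 and 84.3% of those of LM2 replicate 1 were found in parental replicate 1. The corresponding background was 48.6% for parental replicate 1 in LM2 replicate 2 and 25.5% for parental replicate 1 in LM2 replicate 1. Between the LM2 replicates it was 61.4% for regions of replicate 1 and 35.9% for those of replicate 2. The chromosome 17 share was higher than this background in all 6 of these pairs, by 8.68 to 29.7 percentage points. The background contains the set itself, at 11.1%, 20% and 17.1% of it in parental replicate 1 and LM2 replicates 1 and 2. The shares found in parental replicate 2, each 1 region, were below its background of 6.25%, 14.3% and 10.3% for parental replicate 1 and LM2 replicates 1 and 2. These differences were not tested.

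Each region carries a deposited strength score, which ranks regions within 1 list, and a pile-up height, the number stacked at its highest position. Heights are whole numbers with no visible correction for depth, so they were not compared between libraries as levels. Over the chromosome 17 regions, heights ran from 14 to 39 (median 23) in parental replicate 1, from 8 to 16 (median 10.5) in LM2 replicate 1 and from 11 to 29 (median 19) in LM2 replicate 2. The lowest heights anywhere in these lists were 10, 7 and 9. In parental replicate 2 the lowest listed height was 13, and the chromosome 17 region had 17. The set sat near the middle of each whole list by score: the median region outscored 49.4% of the regions in parental replicate 1, 40.1% in LM2 replicate 1 and 53.2% in LM2 replicate 2. By height the set stood lower, with median percentiles of 33.3, 35.5 and 43.0 in the same lists. Among regions more than 2 Mb from a centromere gap, its median score percentiles were 49.0, 44.3 and 67.9. In parental replicate 2 the 1 region of the set outscored 61.1% of the list and exceeded 38.9% of it in height.

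Of the 11 loci of the first cluster, 4 were listed in 3 libraries. The first cluster had 5 groups of loci separated by more than 3 kb, at 8022257 to 8024498, 8028894 to 8029273, 8042010 to 8043082, 8089463 to 8091245 and 8124017 to 8126322. In parental replicate 1 its highest positions spanned 103327 bp in all, and neighbouring ones were a median of 1142 bp apart over 10 steps (442 to 46679 bp). The median step was 2750 bp in LM2 replicate 1 (6 steps) and 1780 bp in LM2 replicate 2 (9 steps). The groups were split at gaps over 3 kb, so short steps within them and long steps between them follow from that rule. In LM2 replicate 1 the 3 steps under 1000 bp (397, 156 and 589 bp) were all between pieces of locus 8.

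In the first group, locus 2 at 8023471 to 8024274 had heights of 22 in parental replicate 1, 11 in LM2 replicate 1 and 19 in LM2 replicate 2. It outscored 47.8%, 51.2% and 61.9% of the regions of those lists, a middle position in each. Its highest positions were 8023727, 8024204 and 8024148, so both MDA-LM2 libraries peaked toward the far end of the locus and parental replicate 1 toward the near end. Beside it, locus 1 at 8022257 to 8022694 had heights of 23 in parental replicate 1 and 21 in LM2 replicate 2. Locus 3 at 8024396 to 8024498 was listed in parental replicate 1 only, with a height of 14, the lowest of that library on this chromosome outside the centromere.

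Locus 4 at 8028894 to 8029273 formed a group alone, and its percentile differed more between the lists than that of any other locus listed in 3 libraries. Its heights were 36 in parental replicate 1, 8 in LM2 replicate 1 and 17 in LM2 replicate 2. It outscored 82.8% of the first list, 14.0% of the second and 53.4% of the third. The highest positions agreed closely, at 8029108, 8029115 and 8029115. Parental replicate 2 did not list it, so the value of that line rests on 1 library and the difference between the lines was not tested.

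The third group, at 8042010 to 8043082, was listed mainly in parental replicate 1. Its locus 5 had heights of 23 there and 14 in LM2 replicate 2, while loci 6 and 7, with heights of 17 and 20, were listed in parental replicate 1 only. LM2 replicate 1 listed nothing in this group.

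Locus 8 at 8089463 to 8091245 was the widest of the first cluster, and the libraries cut it into different numbers of regions. Parental replicate 1 listed 1 region of 1673 bp with a height of 36, its highest score in the cluster (23.8, above 83.3% of its list). LM2 replicate 1 listed 4 separate regions with heights of 10, 9, 8 and 8, whose highest positions lay 397, 156 and 589 bp apart. LM2 replicate 2 listed 2 regions with heights of 21 and 16, 619 bp apart, the first of which was that library's highest score in the cluster (16.2, above 67.2% of its list). The highest position lay near the beginning of the region in parental replicate 1, at 9.0% of its width. A count of regions therefore overstates LM2 replicate 1 here relative to a count of loci.

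The last group, at 8124017 to 8126322, held loci 9, 10 and 11. Heights at locus 9 were 25 in parental replicate 1 and 11 in LM2 replicate 2, and at locus 10 they were 26 and 20. LM2 replicate 1 listed only locus 11, at 8125474 to 8126322, with a height of 13 and its highest score in the cluster (9.55, above 58.1% of its list). Parental replicate 1 had a height of 21 there, and LM2 replicate 2 had 2 regions with heights of 13 and 15. From the highest position of parental replicate 1, that of LM2 replicate 1 lay 386 bp farther on, and those of LM2 replicate 2 lay 68 and 504 bp farther on. In LM2 replicate 2 the region with the greater height was the far one, which also overlapped the region of LM2 replicate 1.

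**Figure D3:**
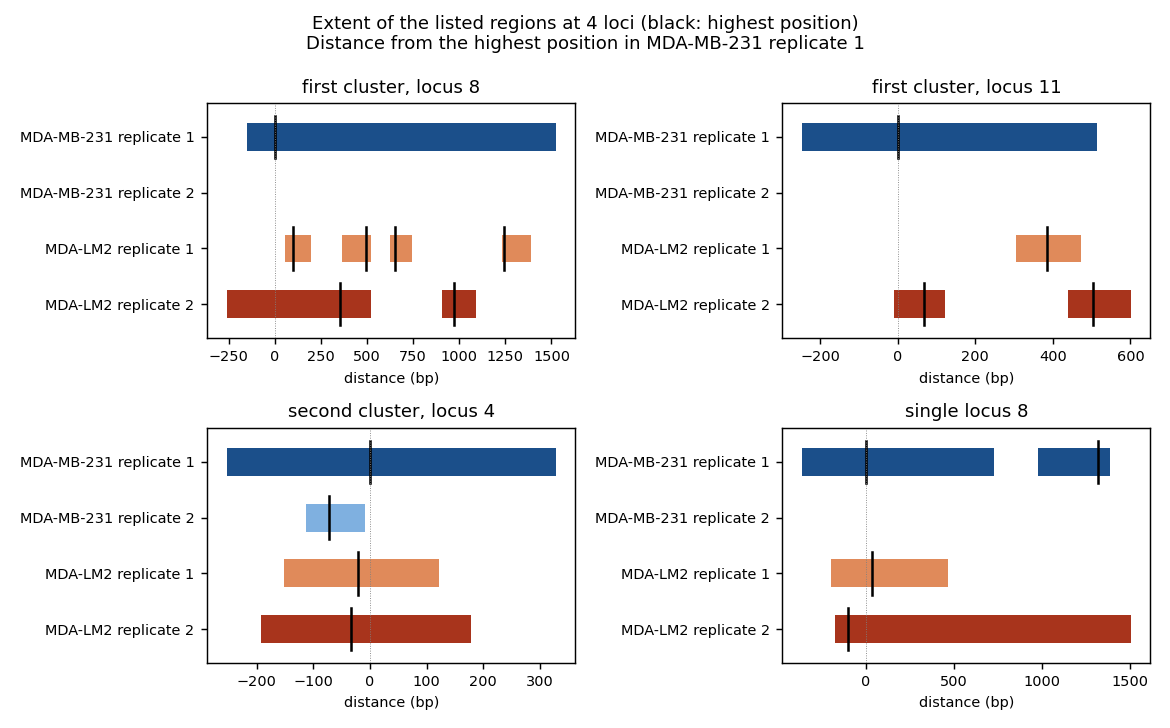
Extent of the listed regions at 4 loci, as distance in bp from the highest position in parental replicate 1 (horizontal axis), with 1 row per library and a black line at each highest position. At locus 8 of the first cluster the single 1673 bp region of parental replicate 1 faces 4 regions of LM2 replicate 1 and 2 of LM2 replicate 2.

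The second cluster held the locus listed in all 4 libraries, locus 4 at 37310442 to 37311023. Its heights were 39 and 17 in parental replicates 1 and 2, and 16 and 28 in LM2 replicates 1 and 2. Among the chromosome 17 loci it had the greatest height in parental replicate 1 and in LM2 replicate 1, and the second greatest in LM2 replicate 2. It outscored 87.3%, 61.1%, 79.1% and 74.6% of the 4 lists in that order. The highest positions were 37310695, 37310623, 37310673 and 37310661, within 72 bp of one another.

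Locus 3 at 37309763 to 37310252 lay next to it, 714 bp away between highest positions in parental replicate 1, 791 bp in LM2 replicate 1 and 712 bp in LM2 replicate 2. Its heights were 32, 11 and 15 in those libraries, each below that of locus 4 in the same library. It outscored 78.0%, 44.2% and 35.0% of the lists. The other loci of the second cluster lay before this pair, a step of 284426 bp in parental replicate 1, and had lower heights in that library. Locus 2 at 37025402 to 37025759 had heights of 18 in parental replicate 1 and 16 in LM2 replicate 2. Locus 1 at 37023756 to 37024125 was listed in parental replicate 1 only, with a height of 17.

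Of the 8 single loci, 5 were listed in 3 libraries, and parental replicate 2 listed none. Single locus 2 at 19411349 to 19411708 had heights of 37 in parental replicate 1, 9 in LM2 replicate 1 and 19 in LM2 replicate 2. Its score was the highest of the single loci in parental replicate 1 (23.3, above 82.0% of the list) and lower in place in both MDA-LM2 libraries (above 25.6% and 44.3%). The highest positions differed by at most 35 bp (19411531, 19411523 and 19411496).

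Single locus 3 at 29877004 to 29877474 had heights of 22, 11 and 22 in parental replicate 1 and LM2 replicates 1 and 2. Its scores stood above 44.1%, 46.5% and 62.9% of the lists. Single locus 4 at 36907789 to 36908256 had heights of 31, 12 and 26 in the same order, with scores above 72.6%, 59.3% and 75.4%. This locus, just before the second cluster, scored above the median of all 3 lists.

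Single locus 6 at 47269664 to 47270188 was the one locus where a library had a greater pile-up height than at the locus shared by all 4. Its heights were 25 in parental replicate 1, 8 in LM2 replicate 1 and 29 in LM2 replicate 2. In LM2 replicate 2 this was the greatest height and the highest score of the set (18.5, above 76.3% of the list), whereas in LM2 replicate 1 it outscored 15.1%. The replicates of MDA-LM2 thus placed it far apart. In parental replicate 1 it outscored 59.1%.

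Single locus 8 at 73029735 to 73031601 was the widest locus of the set, with 1866 bp. Parental replicate 1 listed 2 regions there, with heights of 30 and 21 and highest positions 1320 bp apart. LM2 replicate 1 listed 1 region with a height of 13, its highest score among the single loci (9.88, above 62.8% of its list). In LM2 replicate 2, 1 region of 1680 bp with a height of 22 overlapped both regions of parental replicate 1.

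The last 3 single loci were in fewer lists. Single locus 7 at 66015757 to 66016213 had heights of 26 in parental replicate 1 and 16 in LM2 replicate 2. Single locus 1 at 966828 to 967141 was listed in parental replicate 1 only, with a height of 18 and a score above 26.2% of the list. Single locus 5 at 45213075 to 45213181 was the one locus that parental replicate 1 lacked. It was listed in LM2 replicate 2 only, with a width of 106 bp, the narrowest of that library in the set, a height of 19 and a score above 53.0% of the list.

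Loci that LM2 replicate 1 also listed stood higher in the longer lists than loci it did not. In parental replicate 1, the 11 such loci had heights of 21 to 39 (median 31) and the other 11 had 14 to 26 (median 20). Their scores outranked a median of 72.6% and 42.9% of the list. In LM2 replicate 2, the 11 had heights of 15 to 29 (median 21) and the other 7 had 11 to 21 (median 16), with median score percentiles of 62.9 and 44.7. The ranges overlapped in both lists. The 5 regions of parental replicate 1 found in no other library outscored a median of 25.5% of its list, and the other 18 a median of 57.3%. In LM2 replicate 2 the 1 region found in no other library outscored 53.0% of its list, and the other 19 a median of 53.4%. These are descriptions over loci, and no test was made. The same contrasts over all regions of the lists were not computed, so they are not read as particular to these loci.

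The order of the loci by score, in contrast, was little shared between libraries. Spearman's rho was -0.13 between parental replicate 1 and LM2 replicate 1 over 11 loci, and 0.26 between parental replicate 1 and LM2 replicate 2 over 17 loci. Between the LM2 replicates it was 0.20 over 11 loci. For heights, rho was -0.14, 0.29 and 0.10. These are descriptions over loci of the same library pair, which share depth and listing threshold, and heights such as 8 to 16 leave few steps between loci.

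To set loci side by side, each height was also expressed as a percent of the height at locus 4 of the second cluster in the same library. Over the other 10 loci listed in 3 libraries, this relative height ran from 53.8 to 94.9% (median 78.2%) in parental replicate 1. It ran from 50 to 81.2% (median 68.8%) in LM2 replicate 1 and from 53.6 to 104% (median 71.4%) in LM2 replicate 2. In these 3 libraries the lowest listed heights were 10, 7 and 9 and the reference heights 39, 16 and 28. Listing thus bounded the measure from below, most tightly in LM2 replicate 1, where 50% was a height of 8. Each value also hangs on the 1 reference height of its library. The replicates of MDA-LM2 differed by a median of 12.1 percentage points at a locus, with differences from 0.893 to 53.6. Parental replicate 1 differed from them by medians of 13.7 and 19.7 points, with ranges of 4.33 to 42.3 and 0.275 to 39.5. The ranges of differences between the lines and between the LM2 replicates overlapped.

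By this measure parental replicate 1 was higher than LM2 replicate 1 at 6 of the 10 loci and lower at 4, and it was higher than LM2 replicate 2 at 5 and lower at 5. At locus 4 of the first cluster the relative heights were 92.3%, 50% and 60.7% in parental replicate 1 and LM2 replicates 1 and 2. At single locus 2 they were 94.9%, 56.2% and 67.9%, and at locus 8 of the first cluster 92.3%, 62.5% and 75%. Parental replicate 1 lay above both MDA-LM2 libraries at these loci and at locus 3 of the second cluster, 4 of the 10 in all. It lay below both at 3 loci, among them single locus 3 with 56.4%, 68.8% and 78.6%, and between them at the remaining 3. The loci named here were picked after their values were seen, and because parental replicate 2 lists the reference locus alone, no spread could be given for that line.

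**Figure D4:**
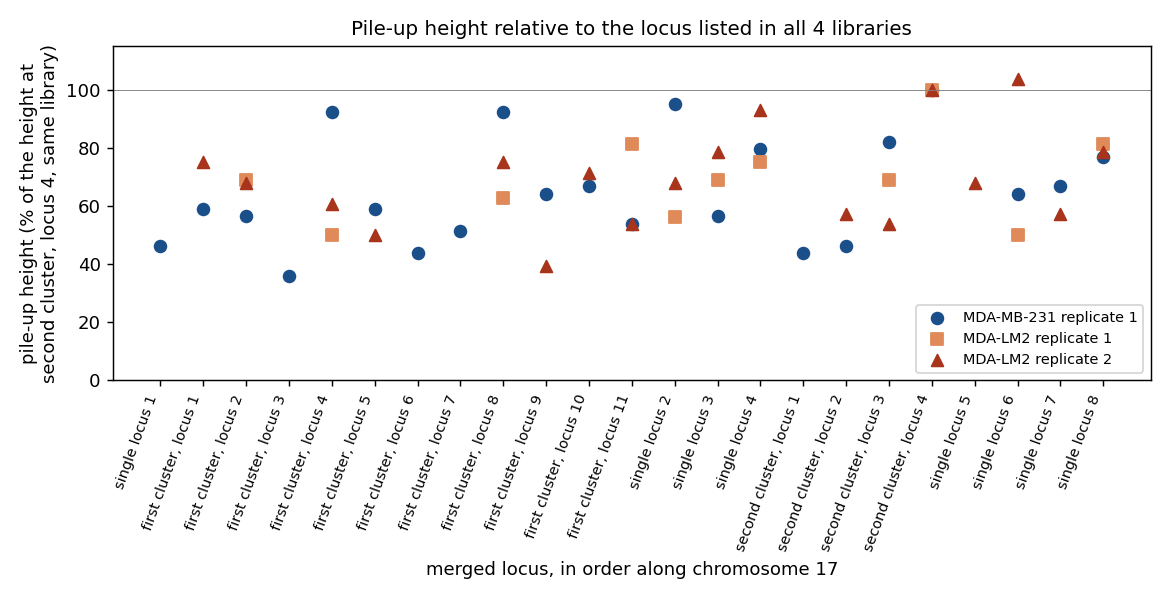
Pile-up height at each locus as a percent of the height at locus 4 of the second cluster in the same library (vertical axis), for the 3 libraries with more than 1 locus, in order along chromosome 17 (horizontal axis). Points of the LM2 replicates lie on both sides of parental replicate 1, and at single locus 6 the LM2 replicates lie at 50% and 104%.

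At most loci shared by a pair of libraries the highest positions lay within 100 bp of each other. Taking the region with the highest score of each library, they lay a median of 70 bp apart between parental replicate 1 and LM2 replicate 2 (17 loci, 3 to 504 bp), 11 of them within 100 bp. The median was 78 bp between parental replicate 1 and LM2 replicate 1 (11 loci, 7 to 477 bp), with 9 within 100 bp. Between the LM2 replicates it was 77 bp (11 loci, 0 to 251 bp), with 7 within 100 bp. Distances between the lines were thus similar in median to those between replicates, although their difference was not tested. The greatest, of 504 bp, was at locus 11 of the first cluster.

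Regions also differed in width. For widths at a locus, the region with the highest score of each library was used. At the 11 shared loci the regions of parental replicate 1 were wider than those of LM2 replicate 1 in 11 of 11, by a median ratio of 2.70. At locus 8 of the first cluster this set 1673 bp against 139 bp, although LM2 replicate 1 covered 565 bp there. Regions of LM2 replicate 1 were wider than those of its own replicate at 1 of 11 loci, with a median ratio of 0.428. That was locus 11 of the first cluster, where LM2 replicate 2 counted as 163 bp but covered 294 bp in 2 regions. Against LM2 replicate 2, parental replicate 1 was wider at 10 of 17 loci (median ratio 1.22). Over all listed chromosome 17 regions of the set, median widths were 407 bp in parental replicate 1, 167 bp in LM2 replicate 1 and 316.5 bp in LM2 replicate 2, and the regions covered 10.9, 2.89 and 8.08 kb. Width followed the length of the list and the heights across these 3 libraries. Their part in each other was not tested.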

How the data were processed

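POLR3A ChIP-seq of 2 MDA-MB-231 and 2 MDA-LM2 libraries was analysed from 1 list of hg19 regions per library, so the authors called regions per library. The submitters' processing notes name hg19, Bowtie2 2.2, DESeq and bedtools without saying what each did. The sources used here do not give the region caller, its threshold or the use of input. The deposited lists have 11 columns and no header, and column meanings were read from the values. The authors' deposited strength score is undefined in these sources and ranks regions within 1 list only. The deposited signal is the pile-up height at the highest position, with unknown depth. A deposited percent column places that position within the region. Region positions, in bp, are as deposited, and their numbering may begin at 0 or 1.

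Regions were merged at an overlap of at least 1 bp, which can chain regions that do not overlap directly. Groups within clusters were split at gaps over 3 kb, a distance chosen after the data were examined. A percentile is the percent of regions of the same list with a lower score. Centromere gap bounds, entered by hand from general knowledge and rounded to 0.1 Mb, served to count regions more than 2 Mb away. Counts per library were compared over libraries with an exact permutation test (two-sided). Alternatives were the top 50% of each list by score, equal list lengths, reciprocal overlap of 50%, joining within 500 bp, each library left out, and a replicate block. The members and lists were chosen with earlier results of these data known. By rule, loci listed in at least 3 libraries, loci listed in both libraries of 1 line only, and the highest score of each library and subset were named in full. Functions were tested on simulated lists. Python 3.11.15, pandas 2.3.3, NumPy 2.4.6, SciPy 1.17.1 and Matplotlib 3.10.9 were used. Gene names came from the RefSeq table of GRCh38.p14. No sequence is printed, because the 33 tRNA genes have no entry in the sequence tables used here.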

Additional observations from a re-analysis of the deposited data

How the results depend on the processing

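The tests of region counts could not pass the threshold, since 2 libraries against 2 allow no p below 0.333, and say nothing about stability. With the strongest 18 regions of each list the differences were 0 for the whole set, the first cluster and the single loci. At that length no list held any region of the first cluster or any single locus. Nothing was left to compare there, and the value for the whole set rested on the second cluster. In the top 50% of each list by score the second cluster gave -0.5. Leaving out 1 library moved the difference from -6 to 16 for the whole set, from -2.5 to 8.5 for the first cluster, from -1.5 to 1.5 for the second and from -2 to 6 for the single loci, and the negative values came without parental replicate 2 and, in the second cluster, also without LM2 replicate 2. The replicate block left the differences at 5, 3, 0 and 2 with an exact paired permutation p of 1, where 2 pairs allow none below 0.5. Libraries of the same number are not stated to be paired, and their deviations from the line means correlated at 0.13 over the 23 loci.

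Under a reciprocal overlap of 50% there were 43 loci. Of these, 4 were listed in at least 3 libraries (9.30%, beside 1.49% of all merged regions) and 0 in all 4 (beside 0.372%). A further count, of 32 in 1 library, has no share over all merged regions computed beside it. Regions of parental replicate 1 were then found at 47.8% in LM2 replicate 2 and 8.70% in LM2 replicate 1. Those of LM2 replicate 2 were found at 55% in parental replicate 1 and 10% in LM2 replicate 1. Those of LM2 replicate 1 were found at 14.3% in both, and all pairs with parental replicate 2 were at 0%. Regions of LM2 replicate 1 are narrow, which this rule penalises by construction. The same shares over the whole lists were not computed under this rule, so the fall is not read as particular to these loci. With regions up to 500 bp apart joined, 3 loci were listed in 1 library and LM2 replicate 1 was found at 100% in its own replicate. In the top 50% of each list, 3 loci were listed in at least 3 libraries, 1 was listed in MDA-LM2 only, and LM2 replicates 1 and 2 were found at 60% and 63.6% in parental replicate 1. For the joining within 500 bp and the top 50%, no shares over all regions of the series were computed. These counts and shares therefore cannot be told apart from what each setting does to all regions. With 1 library left out, loci listed in every remaining library ranged from 1 to 11, in at least 3 from 1 to 11, in 1 library from 6 to 12, in MDA-LM2 only from 0 to 10 and in MDA-MB-231 only from 0 to 5. The 11 were found only without parental replicate 2 (47.8%, beside 6.48% of all merged regions). With that library kept, its single region capped the counts in every remaining library and in at least 3 at 1. The 10 in MDA-LM2 only came without parental replicate 1, where that single region was all that MDA-MB-231 listed. For loci in 1 library, no share over all merged regions was computed in these settings.

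Over regions away from centromere gaps, the median percentile was 67.9 in LM2 replicate 2, and the 1 region of parental replicate 2 stood at 78.6. By height, medians were 33.3 in parental replicate 1, 35.5 in LM2 replicate 1 and 43.0 in LM2 replicate 2. The 1 region of parental replicate 2 stood at 38.9 by height. Midpoints lay 98.5 bp apart at the 1 locus that the MDA-MB-231 replicates shared. The median distance was 120 bp between parental replicate 1 and LM2 replicate 1 (11 loci). It was 119 bp between the MDA-LM2 replicates (11 loci) and 78 bp between parental replicate 1 and LM2 replicate 2 (17 loci). The causes were not tested.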
